A study of Mus musculus with 2 samples.

Results

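Genes of the surface ectoderm, the epithelial sheet that covers the limb, were compared between Hammer toe and wild-type mouse embryos in the tissue that lies between the digits. They were 42 genes chosen by name for epithelial function, with earlier results of these data known. The list held 8 keratins, 3 cell adhesion genes, 11 genes of desmosomes and the plakin family, and 4 claudins. It also held 9 regulators of transcription and splicing, 4 proteases and protease inhibitors, and 3 genes of trafficking and signalling. All 42 had at least 1 probe set that named them alone, among 18193 genes so named, and 41 were measured. Hammer toe is a mutant with webbed digits and was homozygous here. The control was labelled B6 and wild type, while the mutant's label names no strain, so strain and genotype cannot be told apart. Interdigital areas ID2 and ID3 of hind limbs were dissected at stage E13.5, and 250 ng of total RNA was labelled for an Affymetrix array. The design text speaks of 3 sets of 5 littermates, 15 embryos per genotype, but the values come from 1 Hammer toe array and 1 wild-type array, and how the sets relate to them is not stated.

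There were no replicates, so values carry no error between samples, no test was possible and genes are described by size alone. A value is a MAS5 intensity, the brightness of a probe set scaled to the same trimmed mean (500.003) on both arrays. Intensities under a floor of 78.1, the median of all values, were set to the floor, and ratios are Hammer toe over wild type on the log2 scale. A gene was measured when its brighter array passed the floor, and where the other array did not, the ratio is a bound, written "at least". As a technical yardstick, probe sets of the same gene differed in log2 ratio with an SD of 0.21 over 5134 genes. That SD leaves out the variation between embryos. Shh, a patterning ligand of the limb, read 192 in Hammer toe and 22.5 in wild type, at least 2.45-fold higher.

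In the limb bud a thin ectoderm overlies a mass of mesenchyme. Its basal cells make Krt5 and Krt14 under the transcription factor p63, and the outer layer, the periderm, makes simple keratins such as Krt8, Krt18 and Krt19. Keratin filaments are tied at desmosomes, built from the cadherins desmoglein and desmocollin, the linkers plakoglobin and plakophilin, and the plakin desmoplakin. E-cadherin holds the sheet together at adherens junctions, and claudins seal the gaps between its cells. Markers of limb mesenchyme were well above the floor on both arrays: Prrx1 read 11651 in Hammer toe and 12614 in wild type, and Hoxd13 read 15779 in Hammer toe and 17291 in wild type.

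Epithelial genes were mostly somewhat higher on the Hammer toe array. Because the genes were chosen with earlier results of these data known, the counts below only describe them. Of the 41 measured, 35 were higher and 6 lower, while 51.7% of all 11621 measured genes were higher and 48.3% lower. Both counts hold genes whose log2 ratio lay inside the probe set SD of 0.21, such as Krt7 (0.03) and Pkp3 (-0.01). The median log2 ratio of the 41 genes was 0.30, a 1.23-fold difference, and that of all measured genes was 0.01. At 1.5-fold or more, 8 were higher (Pkp1, Krt19, Dsc3, Esrp2, Ap1m2, Cldn4, Pkp2 and Jup), against a background of 2.17% of all genes. Only Grhl1 was lower by that size, where the background was 1.39%. Pkp1 and Krt19 alone passed 2-fold, which 0.258% of all genes did in that direction and 0.112% in the other. At a log2 ratio of 0.32 or more, 19 were higher, against 8.47% of all genes. In bulk tissue, more epithelial cells and more RNA per epithelial cell cannot be told apart. With 1 array per genotype, neither can be told apart from variation between samples.

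Intensity matters to these counts, since dim genes scatter more. Of the 22 epithelial genes whose brighter array read 200 to 1000, 6 passed 1.5-fold, against 2.41% of all genes in that range, and 12 passed a log2 ratio of 0.32, against 9.8%. Of the 11 above 1000, none passed 1.5-fold and 4 passed 0.32 (Cdh1, Epcam, Perp and Dsp), against 0.341% and 2.56% of all genes there. Of the 8 that read up to 200, 2 passed 1.5-fold (Krt19 and Pkp2), against 5.75% of all genes, and 3 passed 0.32, against 18.7%.

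**Figure D1:**
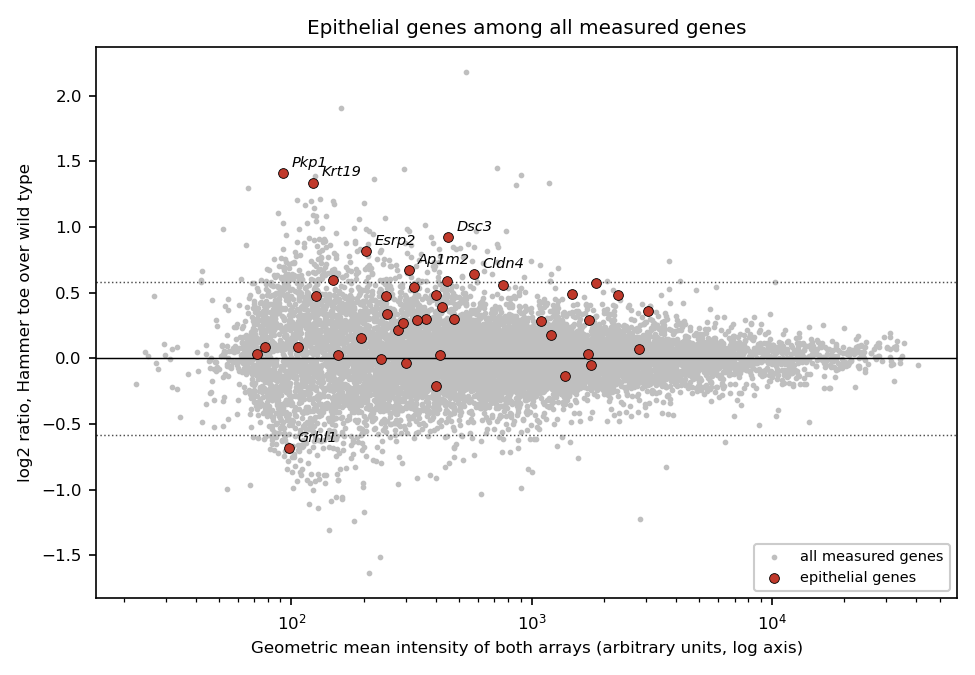
Log2 ratio of Hammer toe over wild type (vertical axis) against the geometric mean MAS5 intensity of both arrays (horizontal log axis). Grey points are the 11621 measured genes and red points the 41 measured epithelial genes, of which 35 lie above 0. Dotted lines mark 1.5-fold. The 7 genes furthest from 0 are named.

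The stretches of DNA upstream of the start site are shown for 8 of the genes: the higher genes Ap1m2, Cldn4 and Jup, the adhesion gene Epcam, and the keratin partners Krt5 with Krt14 and Krt8 with Krt18. Each is the 250 bases before a RefSeq start in GRCm38.p6, 5′ to 3′ on the gene's strand. They lie at chr9:21312334-21312583 (minus strand), chr5:134946935-134947184 (minus), chr11:100397791-100398040 (minus), chr17:87635729-87635978 (plus), chr15:101712906-101713155 (minus), chr11:100206031-100206280 (minus), chr15:102004343-102004592 (minus) and chr15:102027966-102028215 (plus). Capitals mark matches on either strand to CAGGTG, the E-box that ZEB and Snail repressors are known to bind in epithelial promoters, or to GCCNNNGGC, a core letter pattern of AP-2 factors.
Ap1m2: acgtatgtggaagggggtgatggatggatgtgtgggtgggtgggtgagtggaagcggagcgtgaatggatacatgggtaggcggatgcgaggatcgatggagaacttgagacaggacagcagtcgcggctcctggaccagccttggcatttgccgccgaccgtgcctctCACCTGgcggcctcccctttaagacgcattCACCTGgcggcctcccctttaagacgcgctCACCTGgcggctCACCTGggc
Cldn4: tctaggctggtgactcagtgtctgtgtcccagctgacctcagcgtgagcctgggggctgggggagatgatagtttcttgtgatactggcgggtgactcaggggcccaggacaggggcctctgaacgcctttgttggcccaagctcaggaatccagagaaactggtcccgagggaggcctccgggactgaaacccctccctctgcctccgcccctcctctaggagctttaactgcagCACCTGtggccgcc
Jup: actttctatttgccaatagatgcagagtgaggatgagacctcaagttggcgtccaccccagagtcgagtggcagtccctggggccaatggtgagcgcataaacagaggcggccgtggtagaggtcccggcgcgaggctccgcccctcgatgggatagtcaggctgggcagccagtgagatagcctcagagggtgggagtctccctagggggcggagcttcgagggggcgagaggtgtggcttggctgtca
Epcam: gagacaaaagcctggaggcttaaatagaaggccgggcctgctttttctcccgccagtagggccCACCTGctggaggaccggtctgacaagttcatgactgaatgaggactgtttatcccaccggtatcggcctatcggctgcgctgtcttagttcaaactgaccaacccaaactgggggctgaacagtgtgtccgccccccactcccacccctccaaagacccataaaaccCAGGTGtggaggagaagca
Krt5: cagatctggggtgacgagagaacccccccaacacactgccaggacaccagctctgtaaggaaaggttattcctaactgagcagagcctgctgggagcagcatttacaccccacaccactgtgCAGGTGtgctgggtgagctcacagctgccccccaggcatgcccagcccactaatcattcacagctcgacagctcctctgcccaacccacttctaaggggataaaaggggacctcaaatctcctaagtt
Krt14: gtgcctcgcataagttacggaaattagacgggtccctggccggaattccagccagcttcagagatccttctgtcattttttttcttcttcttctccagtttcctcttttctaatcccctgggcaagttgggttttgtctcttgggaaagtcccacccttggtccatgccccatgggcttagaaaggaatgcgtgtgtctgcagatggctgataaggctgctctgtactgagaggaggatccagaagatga
Krt8: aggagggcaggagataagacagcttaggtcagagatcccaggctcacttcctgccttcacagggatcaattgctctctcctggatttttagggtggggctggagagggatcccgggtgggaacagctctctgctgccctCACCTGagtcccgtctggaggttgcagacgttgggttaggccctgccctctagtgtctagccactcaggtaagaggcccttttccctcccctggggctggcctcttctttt
Krt18: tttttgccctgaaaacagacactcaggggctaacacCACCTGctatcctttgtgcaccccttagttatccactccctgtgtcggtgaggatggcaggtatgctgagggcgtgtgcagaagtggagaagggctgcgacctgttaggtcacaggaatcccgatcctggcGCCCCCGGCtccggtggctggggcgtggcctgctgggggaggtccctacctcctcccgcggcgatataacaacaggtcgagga
Matches were descriptive only. A RefSeq window was found for 20 of the 42 genes, with the first listed start taken where a gene had several. Among genes higher by 1.5-fold or more, Pkp1, Krt19, Dsc3, Esrp2 and Pkp2 had no window. The shares and medians below leave them out. CAGGTG was in 12 of these 20 windows (60%), and in 17.1% of the 27018 windows of all genes. The Ap1m2 window held 4 copies, Spint2 held 3, and Epcam and Rab25 held 2 each. The 12 genes with the letters had a median log2 ratio of 0.28 and the 8 without them 0.33. GCCNNNGGC was in 6 of 20 windows (30%), against 13.6% of all, and AACCGGTT, the Grainyhead-like consensus, in 0 of 20, against 0.122% of all. No match of 1 pattern overlapped a match of another.

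Among the 8 keratins, 7 were higher and 1 lower, and the median log2 ratio was 0.30. Krt19, a simple keratin that lacks the tail domain of other keratins, read 197 in Hammer toe and 76.5 in wild type, which is just under the floor. It was at least 2.53-fold higher, the largest ratio of the class, on its only probe set. The basal partners differed in size: Krt5 read 1925 in Hammer toe and 1573 in wild type, while Krt14 read 1743 in Hammer toe and 1805 in wild type. A second probe set of Krt14 read 1369 in Hammer toe and 1038 in wild type, so the sign for Krt14 depends on the probe set. Krt15, also a basal keratin, read 293 in Hammer toe and 211 in wild type, 1.39-fold higher.

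Krt17, a keratin of periderm and of stressed or developing epidermis, read 405 in Hammer toe and 329 in wild type. The simple keratin Krt18 read 483 in Hammer toe and 368 in wild type, 1.31-fold higher. Its partner Krt8 read 367 in Hammer toe and 300.4 in wild type on its brightest probe set, a log2 ratio of 0.29. That probe set is of the _x_at type, which can bind related transcripts. The other probe sets of Krt8, of the _a_at and _x_at types, were lower, with log2 ratios of -0.05 and -0.32. The sign for Krt8 thus depends on the probe set too. Krt7, another simple keratin, read 417 in Hammer toe and 410 in wild type, a difference well inside the probe set SD. In RefSeq, Krt14, Krt15, Krt17 and Krt19 lie on chromosome 11, and Krt5, Krt7, Krt8 and Krt18 lie on chromosome 15.

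**Figure D2:**
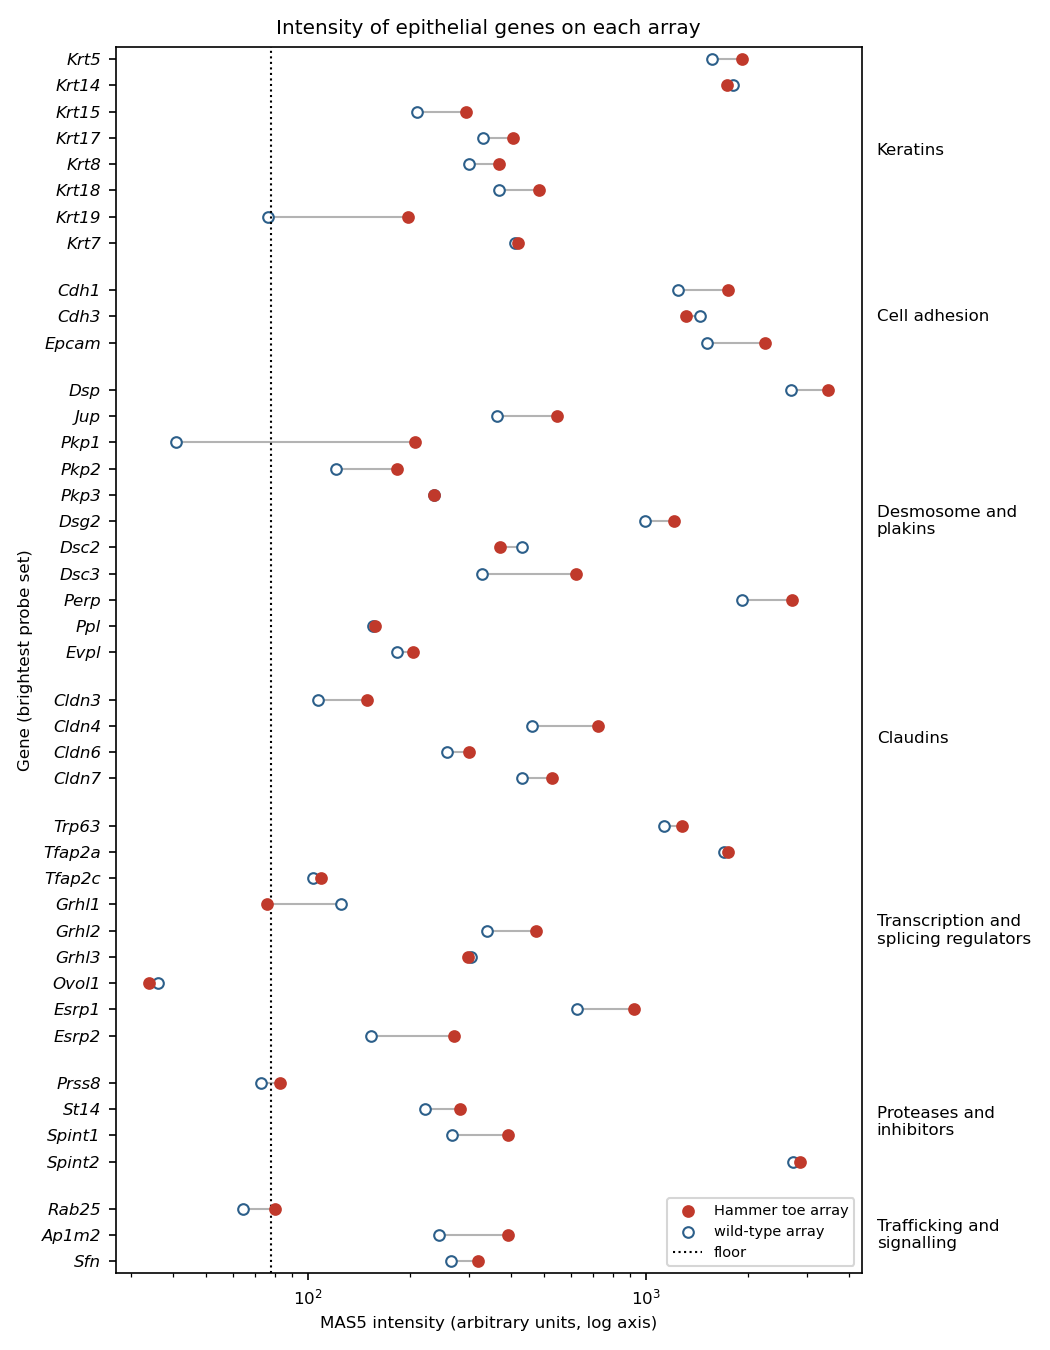
MAS5 intensity (horizontal log axis) of each of the 42 genes on the Hammer toe array (filled red) and the wild-type array (open blue), brightest probe set, ordered by class. The dotted line is the floor of 78.1. Pkp1, with 208 in Hammer toe and 40.8 in wild type, has the widest gap, and Ovol1 lies under the floor on both arrays.

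Of the 3 adhesion genes 2 were higher. Cdh1, which encodes E-cadherin, read 1752 in Hammer toe and 1248 in wild type, a log2 ratio of 0.49. Epcam, an epithelial adhesion protein of the cell surface, read 2254 in Hammer toe and 1517 in wild type, a log2 ratio of 0.57. The brightest probe set of Epcam is of the _a_at type. A dimmer one, of the _x_at type, read 159 in Hammer toe and 259 in wild type, the opposite sign. Cdh3, which encodes P-cadherin of basal cells, read 1313 in Hammer toe and 1444 in wild type, a log2 ratio of -0.14, inside the probe set SD, and its other probe set stood at 0.05.

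Desmosome and plakin genes made up 4 of the 8 genes at 1.5-fold or more, and 9 of the 11 were higher. Their median log2 ratio was 0.36. Pkp1, a plakophilin that stabilises desmosomes of stratified epithelium, read 208 in Hammer toe and 40.8 in wild type, at least 2.66-fold higher on its only probe set. Dsc3, a desmocollin of basal layers, read 621 in Hammer toe and 327 in wild type, 1.90-fold higher, the largest ratio of an epithelial gene with both arrays above the floor. Jup, plakoglobin, read 546 in Hammer toe and 362 in wild type on its only probe set, of the _s_at type. Pkp2, the plakophilin of simple epithelia and heart, read 184 in Hammer toe and 121 in wild type, also on an _s_at probe set. Its second measured probe set, of the plain _at type, had a log2 ratio of 0.33.

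Desmoplakin and the p63 target Perp, a desmosomal membrane protein, were the brightest members of the class. Dsp read 3454 in Hammer toe and 2692 in wild type, and its next probe set read 3125 in Hammer toe and 2043 in wild type, a log2 ratio of 0.61. Perp read 2699 in Hammer toe and 1927 in wild type, 1.40-fold higher. The desmoglein gene Dsg2 read 1210 in Hammer toe and 994 in wild type, and its 6 measured probe sets ranged from -0.17 to at least 1.16 in log2 ratio. The other members were near or below wild type: the desmocollin gene Dsc2 read 371 in Hammer toe and 430 in wild type, and the plakophilin gene Pkp3 read 236 in Hammer toe and 237 in wild type. Periplakin and envoplakin, which build the cornified envelope later in development, had log2 ratios of 0.02 (Ppl) and 0.16 (Evpl). On their brightest probe sets, desmocollins and plakophilins were thus each split, with Dsc3, Pkp1 and Pkp2 higher and Dsc2 and Pkp3 not. The Dsc2 log2 ratio of -0.21 lay just inside the probe set SD, and its other measured probe set had at least 0.06.

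All 4 claudins were higher on their brightest probe sets, and the median log2 ratio was 0.39. Cldn4 read 722 in Hammer toe and 462 in wild type, 1.56-fold higher. Cldn7 read 529 in Hammer toe and 430 in wild type, and Cldn6, a claudin of embryonic epithelia, read 300 in Hammer toe and 258 in wild type. Cldn3 read 149 in Hammer toe and 107 in wild type, but 2 of its 4 probe sets, both of the _x_at type, had log2 ratios of -0.13 and -0.07.

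Of the 8 measured regulators 6 were higher and 2 lower, and the median log2 ratio was 0.13. They spread widely, with Esrp1, Esrp2 and Grhl2 higher and Grhl1 lower. The splicing factor gene Esrp1 read 922 in Hammer toe and 628 in wild type, and Esrp2 read 271 in Hammer toe and 154 in wild type, log2 ratios of 0.55 and 0.81. Esrp proteins switch many transcripts, Fgfr2 among them, to their epithelial isoforms. A second probe set of Esrp2, of the _s_at type, read 115 in Hammer toe and 155 in wild type, the opposite sign.

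Trp63, the gene of p63, read 1277 in Hammer toe and 1131 in wild type, a log2 ratio of 0.18, and its other measured probe sets had 0.31 and at least 0.71. The AP-2 genes Tfap2a and Tfap2c, regulators of early ectoderm, had log2 ratios of 0.03 and 0.08 on their brightest probe sets, inside the probe set SD. Their other probe sets ranged from -0.22 to 0.06 for Tfap2a and from 0.03 to at least 0.68 for Tfap2c. The Grainyhead-like factors, which control epithelial junctions and barrier formation, did not share a direction. Grhl2 read 474 in Hammer toe and 340 in wild type, Grhl3 read 298 in Hammer toe and 305 in wild type, and Grhl1 read 75.8 in Hammer toe and 126 in wild type, at least 1.61-fold lower. Ovol1, a zinc finger transcriptional repressor that acts in epidermal differentiation, was not measured: it read 34.0 in Hammer toe and 36.2 in wild type on its brighter probe set.

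The membrane protease system had all 4 genes higher, Spint2 and Prss8 by small amounts, and a median log2 ratio of 0.21. Spint1, an inhibitor of matriptase, read 391 in Hammer toe and 268 in wild type, a log2 ratio of 0.55, and St14, matriptase itself, read 281 in Hammer toe and 222 in wild type, a log2 ratio of 0.34. The related inhibitor gene Spint2 read 2855 in Hammer toe and 2724 in wild type. Prss8, prostasin, read 82.9 in Hammer toe and 72.9 in wild type, barely at the floor, a log2 ratio of at least 0.09. Of the trafficking and signalling genes, Ap1m2, a subunit of the epithelial clathrin adaptor for basolateral sorting, read 390 in Hammer toe and 244 in wild type, 1.60-fold higher. Sfn, an epithelial 14-3-3 protein, read 320 in Hammer toe and 265 in wild type. Rab25, an epithelial recycling GTPase, read 80.0 in Hammer toe and 64.2 in wild type, a log2 ratio of at least 0.04.

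Over all probe sets the direction was similar but less even. The 42 genes had 78 probe sets that named them alone, of which 67 were measured, 53 higher and 14 lower. Of the 15 genes with several measured probe sets, 6 had all of them higher (Dsp, Grhl2, Pkp2, Spint2, Tfap2c and Trp63), none had all lower, and 9 had some on each side. Within epithelial genes the SD between probe sets was 0.35 over 14 genes, wider than the 0.21 of all genes. Of 7 measured probe sets of the _x_at type 5 were lower, while 33 of 40 of the plain _at type were higher. Over all genes, 50.04% of _x_at and 49.8% of _at probe sets were higher.

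**Figure D3:**
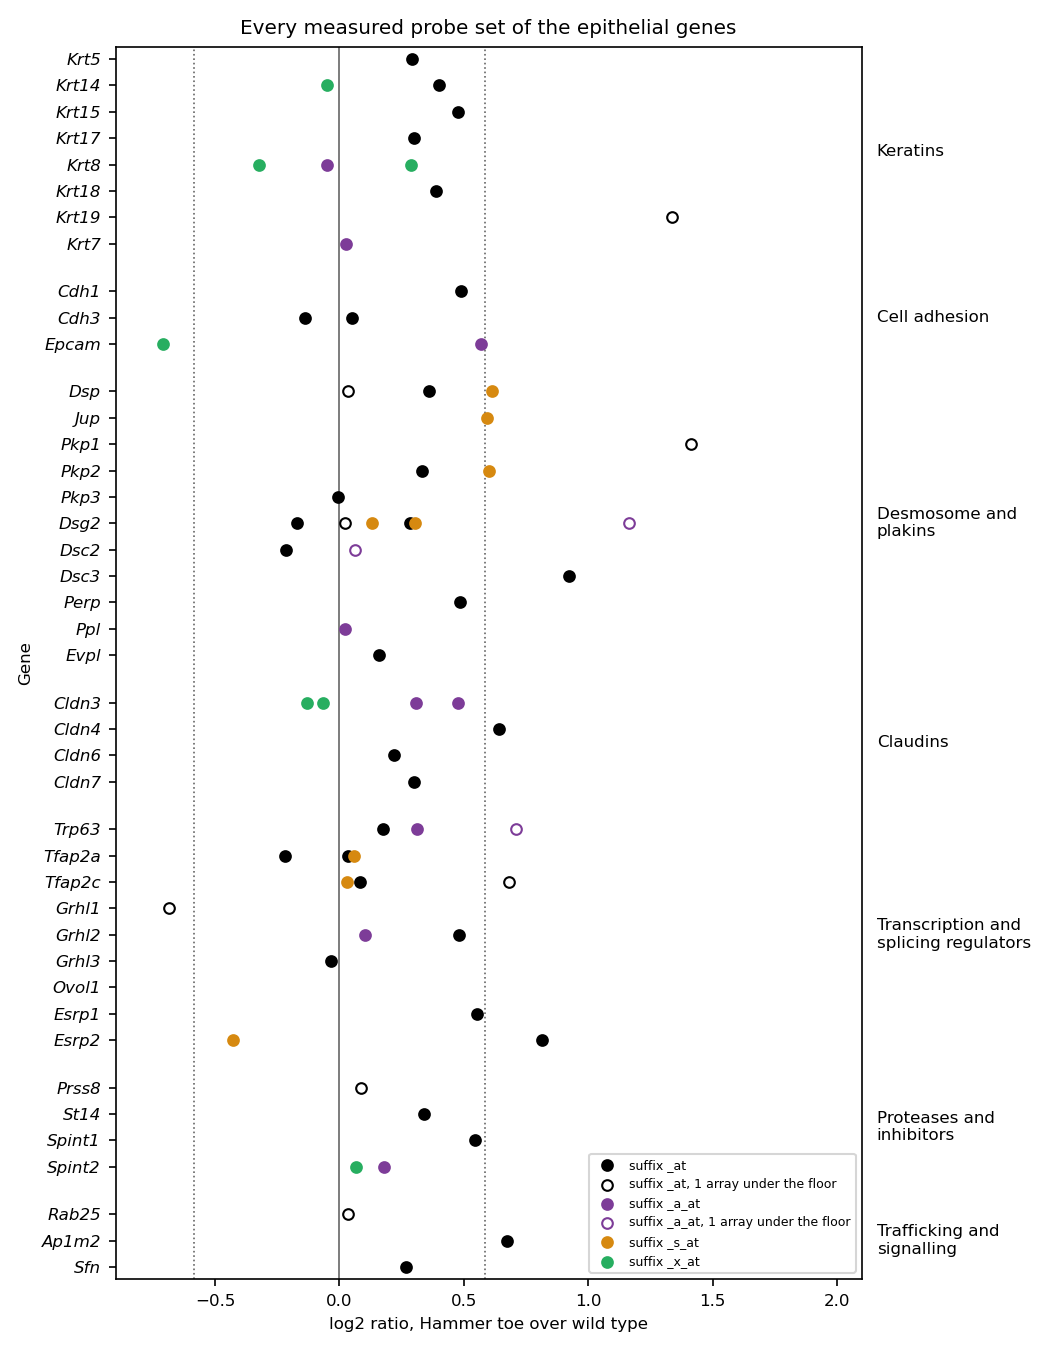
Log2 ratio of Hammer toe over wild type (horizontal axis) for each of the 67 measured probe sets, by gene and class. Colours give the probe set suffix, open points have 1 array under the floor and are bounds, and dotted lines mark 1.5-fold. Epcam, Esrp2 and Krt8 have probe sets on both sides of 0, and 53 of 67 points lie right of it.

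Other epithelial lists were less far from wild type than the 42 genes. In the list of hemidesmosomes and basement membrane 7 of 10 were higher, and the median log2 ratio was 0.03. Its members at 1.5-fold were Col17a1, a hemidesmosome collagen, with 799 in Hammer toe and 504 in wild type, Lama5, a laminin chain of basement membranes, with 460 in Hammer toe and 292 in wild type, and Lamb3, lower with 69.0 in Hammer toe and 121 in wild type. Of 12 other junction and polarity genes 9 were higher, their median was 0.12, and Cldn23 read 249 in Hammer toe and 141 in wild type. Of 8 other epithelial regulators 7 were higher, and their median was 0.16. The furthest was Ripk4, a kinase of epidermal differentiation, with 442 in Hammer toe and 323 in wild type, while its other probe set stood at -0.64. Regulators among the 42 genes had 6 of 8 measured higher and a median of 0.13, below that of the other regulators.

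The apical ridge and limb ectoderm list, which includes the ridge ligand gene Fgf8, had 5 of 11 genes higher and 6 lower, and a median of -0.05. Wnt10a, an ectodermal Wnt, read 195 in Hammer toe and 107 in wild type, 1.82-fold higher. Only 3 of 10 genes of periderm and stratified epidermis were measured, 2 higher and 1 lower. Krt6a read 76.2 in Hammer toe and 131 in wild type, with a second probe set at a log2 ratio of at least 0.24. All these lists were chosen with earlier results of the data known, and differences between them and the 42 genes were not tested.

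Markers of other cell types differed too, and their part in the epithelial ratios was not tested. Of 16 limb mesenchyme genes 10 were lower; their median log2 ratio was -0.08, with summed intensities of 117762 in Hammer toe and 121991 in wild type. Zeb2, a repressor of epithelial genes, stood apart with 548 in Hammer toe and 308 in wild type, though its other probe sets ranged from -0.03 to 0.93. Of 7 macrophage genes 6 were higher, their median was 0.49, and they had summed intensities of 3187 in Hammer toe and 2434 in wild type. Aif1, Mrc1 and C1qa had log2 ratios of 0.79, 0.59 and 0.59. The 42 genes' measured members summed to 32315 in Hammer toe and 26362 in wild type.

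Of 6 skeletal muscle genes 4 were higher, their median was 0.45, and they had summed intensities of 1490 in Hammer toe and 975 in wild type, led by Myh3 at 2.13-fold and Actc1 at 1.96-fold. All 4 measured erythroid genes were lower, their median was -0.40, and they had summed intensities of 49041 in Hammer toe and 56957 in wild type, and Hbb-bh1 was 1.77-fold lower. Of 6 endothelial genes 3 were higher, their median was -0.02, and they had summed intensities of 3220 in Hammer toe and 2961 in wild type. Esam was furthest, at a log2 ratio of 0.55. Of 3 measured Schwann and nerve genes 3 were higher, Sox10 only at the floor, and their median log2 ratio was 0.30. Mbp was 1.59-fold higher, with its other measured probe set at a log2 ratio of 0.22, and Erbb3 had a log2 ratio of 0.30. Sox10 read 78.1 in Hammer toe, at the floor, and 27.3 in wild type. The 3 genes had summed intensities of 862 in Hammer toe and 626 in wild type. No marker of these lists read 0 on either array.

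**Figure D4:**
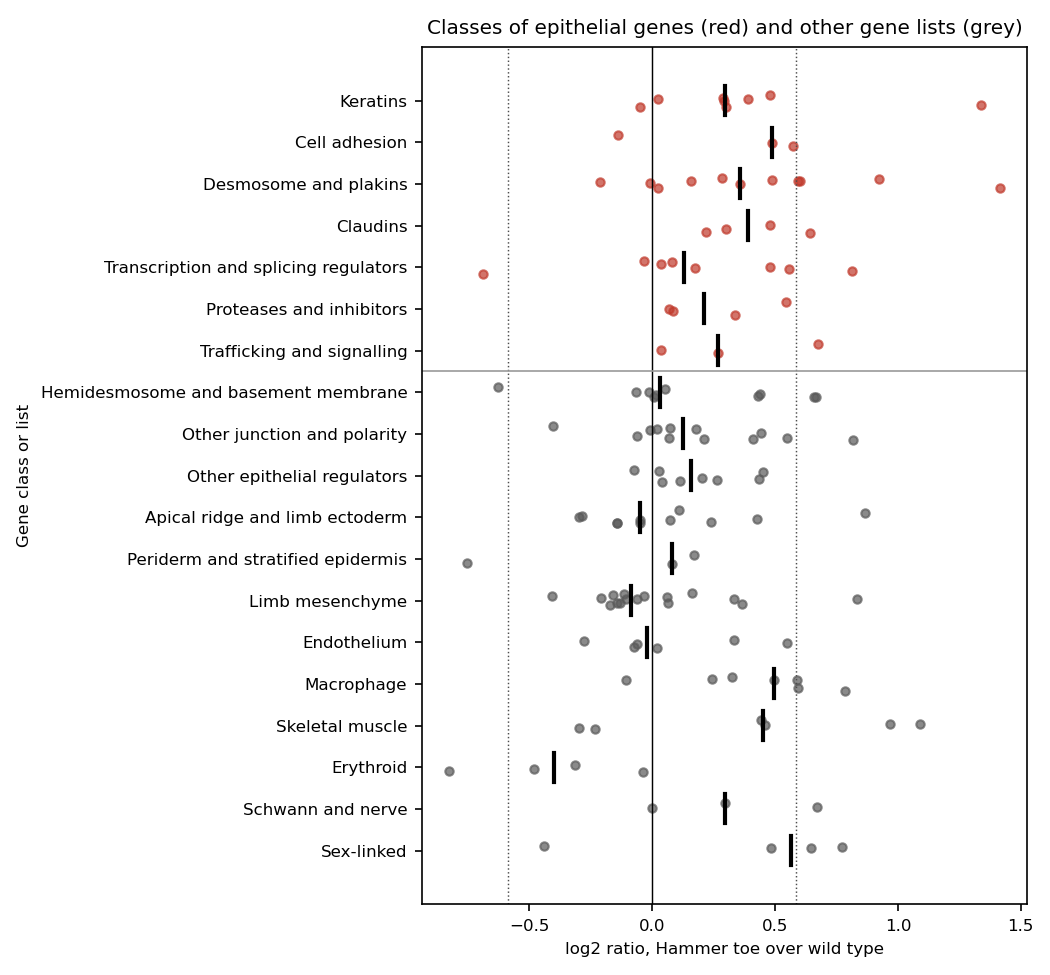
Log2 ratio of Hammer toe over wild type (horizontal axis) for each measured gene of the 7 classes of epithelial genes (red) and 12 other lists (grey), with black ticks at the medians and dotted lines at 1.5-fold. All 7 epithelial class medians lie above 0, from 0.13 for regulators to 0.49 for cell adhesion, and limb mesenchyme lies at -0.08.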

How the data were processed

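Total RNA of hind limb interdigits was measured on 1 Hammer toe and 1 wild-type Affymetrix array. The deposited values are linear intensities, 1 per probe set. The submitters' processing notes name MAS5 and Affymetrix Expression Console as the tools and give no version. MAS5 scaling gives each array the same mean after trimming 2% at each end, so a shift shared by most transcripts cannot be seen. Of 45101 probe sets, 64 controls were left out, and 34945 named exactly 1 gene in GEO's platform annotation, with symbols updated through the gene ID to RefSeq GRCm38.p6 (204 kept the old symbol). Each gene took the values of the probe set that was brightest on average. No test was made, since there was 1 array per genotype, and the number of arrays limits the precision. Calls are by size, at 1.5-fold. The ratio code was tested on simulated data with known changes. Python 3.11.15, pandas 2.3.3, NumPy 2.4.6 and statsmodels 0.14.6 were used.

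The 42 genes and the other lists were chosen with earlier results of these data known. All 42 are named. Genes of other lists are named at 1.5-fold or more, at most 4 per list, or else the furthest; Prrx1, Hoxd13, Fgf8, Erbb3, Sox10, Kdm5d, Xist and Shh were named besides. The alternatives tried were quantile normalization, median centring, a lowess correction (span 0.3), a floor at the 75th or the 25th percentile or none, a pseudocount, the mean over probe sets, leaving out _x_at, _s_at and _a_at probe sets, and other sizes of change. Promoter windows came from RefSeq.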

Additional observations from a re-analysis of the deposited data

How the results depend on the processing

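The median log2 ratio of the epithelial genes lay between 0.26 and 0.32 under all alternatives run, against 0.30. A floor at the 75th percentile left 16 of the genes measured. Of these 14 were higher, against 51.3% of all genes at that floor, 0 passed 1.5-fold upward, against 0.356%, and 0 downward. With a pseudocount, which shrinks the ratios of dim genes, 4 passed upward (Dsc3, Esrp2, Krt19 and Pkp1), against 1.02% of all genes, and 0 downward. At 2-fold the counts were 2 and 0, against 0.258% and 0.112% of all genes. At a log2 ratio of 0.32 or more 19 were higher, against 8.47%. Counting only genes above the floor on both arrays, an alternative chosen after seeing the data, left 36 genes. Of these 31 were higher, while 5659 of all 10985 such genes were. At 1.5-fold 6 passed upward, against 1.87% of all such genes, and 0 downward. After quantile normalization Jup and Pkp2 stood at 0.580 and 0.576, just under the 1.5-fold line. Without _x_at, _s_at and _a_at probe sets Jup had none left and Pkp2 stood at 0.33, and Esrp2 and Pkp2 were lost with the mean over probe sets. In each of these 3 cases 6 remained, against 2.02%, 2.16% and 1.81% of all genes in the order given. The median of the adhesion genes was -0.04 with the mean over probe sets, where Epcam stood at -0.07. Of the 41 genes, 32 were higher and 5 (Cdh3, Dsc2, Grhl1, Grhl3 and Pkp3) lower under every alternative that measured them. Many of these signs could not change, since another floor or a pseudocount cannot turn the sign of a probe set. Pkp3 ranged only from -0.012 to -0.006 and Grhl3 from -0.034 to -0.027. Among values of single genes and of class or list medians, 482 moved by less than the SD of 0.21 between probe sets and 25 by more. Many of the 482 could not move. A gene above the floor on both arrays keeps its ratio under a lower floor. A gene with 1 measured probe set keeps it under the mean over probe sets. Pkp1 stood at 2.35 without a floor, Krt8 at -0.03 with the mean over probe sets, and the macrophage median at 0.06 under the highest floor, where 3 genes were left. No paired analysis was possible because each genotype has 1 array. Among the 41 genes, Pkp1, Krt19, Grhl1, Prss8 and Rab25 give only bounds.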

Other observations

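A further probe set was annotated to both Krt17 and Krt14 and stayed out of the gene values. It read 51.6 in Hammer toe and 26.7 in wild type, under the floor on both arrays.

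Sex-linked genes differed between the arrays as well. Eif2s3y and Uty, which lie on the Y chromosome, were 1.71-fold and 1.57-fold higher in Hammer toe, and the Y-linked Kdm5d had a log2 ratio of 0.48. Xist, transcribed from the inactive X, read 5988 in Hammer toe and 8131 in wild type, a log2 ratio of -0.44, with its other measured probe sets from -0.72 to -0.50. The part of these genes' difference in the epithelial ratios was not tested.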
